A study of Mus musculus with 18 samples.

Results

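In a pulldown of Argonaute 2 (Ago2) from mouse colonic epithelium, 240 of the 5554 merged peaks carried a site for the miR-29 family. A peak is a stretch of RNA where reads crosslinked to Ago2 pile up. It was counted here if the authors' annotation gave it at least 1 miR-29 match of 8 or 7 bases. The 8-base match (8mer) pairs with the whole seed and has an A opposite the first base of the miRNA. The 7-base matches lack either that A (7m8) or the pairing to the last seed base (7A1). No measured level entered this choice. The 240 peaks fell in 225 gene labels, and 94 further peaks held only a 6-base match and were not counted.

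The miR-29 family consists of miR-29a, miR-29b and miR-29c, which share 1 seed and are made from a pair of gene clusters. Loaded into Argonaute, a mature miRNA pairs through its seed with messenger RNAs, mostly in their 3' untranslated regions (UTRs), and lowers their stability and translation. The family is best known for repressing collagens and other matrix genes in fibroblasts, DNA methyltransferases and Tet dioxygenases, the anti-apoptotic gene Mcl1, and regulators of PI3K and AKT signalling.

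The mutant mice carried Halo-Ago2/+, Fabp-Cre/+ and K-Ras-G12D/+ (G12D), and so had 1 oncogenic K-Ras allele. Their controls carried Halo-Ago2/+ and Fabp-Cre/+ with wild-type K-Ras (WT). Both groups were C57BL/6 mice of 8 to 12 weeks, and both had the tagged Ago2 and the Cre transgene, whose fatty acid binding protein promoter is used to direct recombination to intestinal epithelium. Epithelium was scraped from the distal colon and crosslinked with UV light 3 times at 400 mJ per square centimetre. There were 3 libraries of Ago2-bound miRNA and 3 of Ago2-bound mRNA for each genotype. Whether separate mice gave the replicate libraries is not stated, and p-values therefore describe library-to-library spread, which may be technical. The input controls, 6 in number, were not analysed here, and a difference in 1 peak alone cannot be told apart from a difference in its transcript.

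The 3 mature guide strands are shown because their shared seed defines the sites. Each is written from 5′ to 3′ as given by RefSeq for GRCm38.p6, with the seed, bases 2 to 8, in capitals.
mmu-miR-29a-3p: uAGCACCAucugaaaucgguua
mmu-miR-29b-3p: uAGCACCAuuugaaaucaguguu
mmu-miR-29c-3p: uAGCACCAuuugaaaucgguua
All 3 have the seed AGCACCA, so the sites sought in an RNA are TGGTGCTA (8mer), TGGTGCT (7m8) and GGTGCTA (7A1), and a peak cannot be assigned to 1 of the 3 miRNAs. Counted from 1 at the 5′ end, miR-29a differs from miR-29c by C10U. Over their first 22 bases miR-29a differs from miR-29b by C10U, G18A, U21G and A22U. Mir29a and Mir29b-1 lie on the minus strand of chromosome 6, with mature strands at chr6:31062673-31062694 and chr6:31063025-31063047. Mir29b-2 and Mir29c lie on the plus strand of chromosome 1, at chr1:195037091-195037113 and chr1:195037600-195037621.

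The surroundings of 2 sites fell inside RefSeq promoter windows of the same build and are shown as examples of a real match, with the paired bases in capitals.
Nrbp1: ggagagaaaggTGGTGCTgcaggggtggc
Cdk5rap3: ccgctcaggatTGGTGCTAggctgggccg
The Nrbp1 site lies in a 3' UTR peak on the plus strand and its sequence spans chr5:31251472-31251500. Nrbp1 encodes a nuclear receptor binding protein of the pseudokinase class. Its peak had 19.6, 21.3 and 23.0 normalized reads in the G12D libraries, against 8.49, 20.3 and 9.02 in the WT libraries (limma adjusted p = 0.185). The Cdk5rap3 site is an 8mer in a 5' UTR peak on the minus strand, within chr11:96916423-96916451. That peak had 2.18, 10.9 and 12.2 normalized reads in G12D and 4.25, 2.90 and 6.44 in WT (limma adjusted p = 0.519). In both genes the genotypes overlapped.

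Depth differed between the pulldown libraries. Merged peaks took 148927, 723937 and 247358 reads in G12D, against 100978, 54401 and 148770 in WT. The miRNA libraries held 337788 to 433245 reads in G12D and 437439 to 535932 in WT. Values below are normalized reads, the authors' reads per feature divided by 1 factor per library. Of the 240 miR-29 peaks, 1, 0 and 0 were without a read in the G12D libraries, against 51, 82 and 58 in the WT libraries. Over all merged peaks the share without a read was 23.3 to 33.4% in the WT libraries, close to the 21.3 to 34.2% among miR-29 peaks. All 15 colonocyte marker genes checked had an Ago2 peak, and none of 13 stromal and smooth muscle markers, 3 endothelial markers or 7 blood cell markers had any.

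None of the guide strands held by Ago2 passed the test between genotypes. miR-29a-3p had 831, 1181 and 851 normalized reads in G12D, against 579, 690 and 964 in WT. The values overlapped, and the difference did not pass (0.37 ± 0.28 SE on the log2 scale, limma adjusted p = 0.401). miR-29b-3p had 299, 396 and 257 normalized reads in G12D and 158, 205 and 355 in WT, and also overlapped (log2 fold change 0.46 ± 0.35, limma adjusted p = 0.393). For miR-29c-3p the values were 155, 313 and 152 in G12D and 172, 133 and 221 in WT (log2 fold change 0.18 ± 0.36, limma adjusted p = 0.793), and its mean difference turned to -0.18 when libraries were scaled to equal totals. In each of these guides G12D replicate 2 was the highest G12D library. By mean level they ranked 69, 105 and 114 of 459 miRNAs, and miR-29a-3p made up 62.5 to 67.6% of the 3 guide strands in G12D libraries and 62.6 to 67.1% in WT libraries. Together the guides took 0.278, 0.365 and 0.268% of the miRNA reads in G12D and 0.219, 0.282 and 0.441% in WT.

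Of the passenger strands, which are usually discarded during loading, miR-29a-5p passed the test. It fell to 12.3, 2.66 and 5.42 normalized reads in G12D, against 31.3, 12.3 and 18.0 in WT (log2 fold change -1.56 ± 0.48, limma adjusted p = 0.0220). The highest G12D library lay just above the lowest WT library, so the groups overlapped. Of the 6 family strands tested this was the only call. Over all 254 miRNAs tested, limma called 15.7%, with 9.06% higher and 6.69% lower. The adjusted p of miR-29a-5p was 0.0963 when the filter on low values was removed and 0.0675 without the variance trend. It was 0.140, 0.0776 and 0.0949 without G12D replicate 2, WT replicate 1 or WT replicate 3, while edgeR gave 0.0168 and DESeq2 0.103. miR-29b-2-5p and miR-29c-5p, at log2 fold changes of 0.25 and -0.46, were not called, and miR-29b-1-5p was too low to test.

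**Figure D1:**
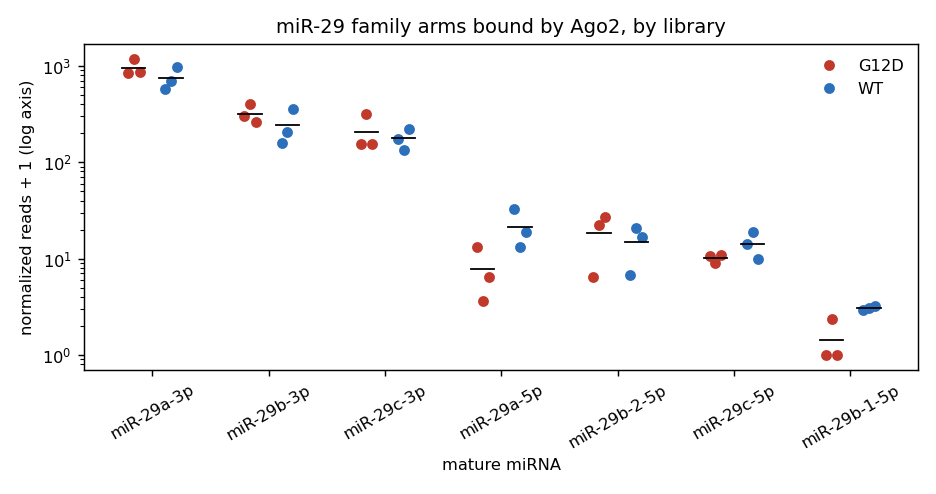
Normalized reads + 1 (log axis) of the miR-29 strands in each miRNA library, with G12D libraries left of WT libraries and a bar at each group mean. The guide strands overlap between genotypes, while 2 of the 3 G12D values of miR-29a-5p lie below all 3 WT values.

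The miR-29 family was the fifth most frequent of 75 annotated families by number of peaks. Its 240 peaks followed let-7 with 519, miR-200 with 341, miR-194 with 337 and miR-15/16 with 293. The best match was an 8mer in 87 peaks, a 7m8 in 114 and a 7A1 in 39. By the authors' annotation 124 peaks (51.7%) lay in 3' UTRs, 72 in exons outside UTRs, 27 in introns and 9 in 5' UTRs, and 8 carried an asterisked UTR class that is not explained. Over all annotated peaks 54.7% lay in 3' UTRs. The best miR-29 match was an 8mer in 29.0% of miR-29 peaks in 3' UTRs. Of the other 3' UTR peaks with a seed match, 40.9% held an 8mer for any family. In introns the shares were 63.0%, or 17 of 27 peaks, and 52.3%. These shares are unlike measures, because a peak matching several families has several chances of an 8mer. No test was run on them, and they do not show whether miR-29 sites are poorer or richer in 8mers.

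Just over 1 in 2 miR-29 peaks stood without a match to another family: 123 had none, 88 had 1, 24 had 2, 3 had 3 and 2 had 4. The families found most often in the same peak were miR-15/16 (12 peaks), let-7 (8), miR-103/107 (8), miR-200 (7) and miR-23 (7). Most genes held a single miR-29 peak. Only 14 genes held more, and Tet3, which encodes an enzyme that oxidizes methylated cytosine, held 3.

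Between genotypes, miR-29 peaks moved in both directions. Of the 240 peaks, 199 had a mean of at least 5 normalized reads and were tested in a limma fit over all merged peaks. Of these 74 were higher in G12D and 19 were lower, and 106 were not called. Among the 199 were 11 peaks with no WT read, which passed the filter through their G12D reads alone. Over all 4438 tested peaks 147 were of this kind. Without G12D replicate 2 or without G12D replicate 3 the calls numbered 55. Over all tested peaks 977 were higher and 433 lower without the former, and 988 and 463 without the latter. Over all 4438 peaks tested, 36.2% were higher and 12.7% lower, so the 74 and 19 of 199 lay near the background. The median log2 fold change was 1.16 over tested miR-29 peaks and 1.05 over all tested peaks. The 3 G12D libraries lay above the 3 WT libraries in 82 miR-29 peaks and below them in 21, against 43.9% and 15.2% of all tested peaks. Of the 41 miR-29 peaks too low to test, 14 were intronic, 14 lay in 3' UTRs and 12 in exons. The authors' deposited table called 91 miR-29 peaks higher and 21 lower, and 65 and 19 of these were limma calls in the same direction. The authors' deposited table had 37.9% of all its peaks with a test higher and 11.6% lower.

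The split depended on the scaling. Quantile normalization moved the median of all tested peaks from 1.05 to 0.16. It called 30 miR-29 peaks higher and 24 lower, beside 873 and 802 of all 4438 tested peaks. With edgeR and TMM scaling the median was 0.47 and the split 48 to 30, beside 1093 higher and 894 lower among all peaks. With DESeq2 the median was 0.66 and the split 49 to 23, beside 1130 and 771. No miR-29 peak among the 93 calls changed sign under these settings, and 48, 67 and 68 of them remained calls. For the peaks named by rule and the miR-29 strands, a direction that turned on a scaling is named in the text. Uncalled peaks given as examples, and the differences within single genes, were not checked for this.

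**Figure D2:**
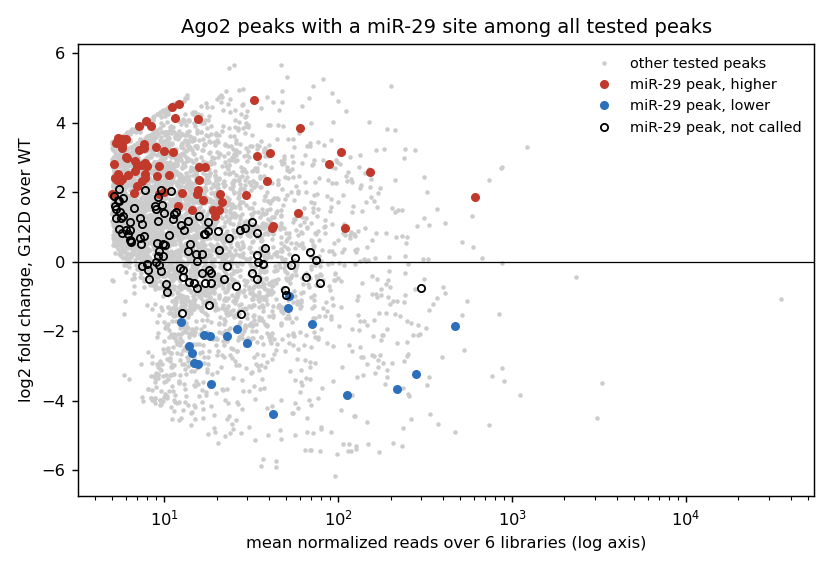
Log2 fold change, G12D over WT, against the mean normalized reads of each tested peak over 6 libraries (log axis), with miR-29 peaks coloured by their limma call and other tested peaks in grey. The 74 higher and 19 lower miR-29 peaks spread over the same range as the other peaks, whose median was 1.05.

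The largest rises included membrane proteins and a component of the miRNA pathway itself. The 3' UTR peak of Emp1 (chr6:135382287-135382337), an epithelial membrane protein gene, had 60.0, 82.7 and 48.1 normalized reads in G12D, against 2.12, 0 and 3.87 in WT. All G12D libraries were above all WT libraries, as the choice of the largest rises required. The fitted difference was 4.67 ± 0.65 on the log2 scale (limma adjusted p = 0.000304). A second Emp1 peak, in the 5' UTR, rose to 167, 141 and 156, against 31.8, 17.4 and 16.8 in WT (log2 fold change 2.82 ± 0.37). Emp1 held 14 further tested peaks without a miR-29 site, of which 11 were higher and 1 lower. Pmp22, a related tetraspan membrane protein gene of junctions and myelin, had 18.5, 26.2 and 23.0 normalized reads in its 3' UTR 8mer peak in G12D and 0, 0 and 1.29 in WT. With a single WT read, the ratio of reads scaled to depth was 39.2, with an exact 95% counting interval of 6.94 to 1555. Its log2 fold change was 4.15 ± 0.63, and 4 of 5 other Pmp22 peaks were also higher.

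Of the tested miR-29 peaks 11 had no WT read at all, and so passed the filter on low values through their G12D reads alone. An intronic peak of Dgcr8, whose protein works with Drosha to cut primary miRNAs, had 17.4, 15.7 and 39.5 normalized reads in G12D and 0 in each WT library. Set against a floor of 3 counts over the WT group, this was at least 10.9-fold higher. The other tested Dgcr8 peak, in an exon, had 3.27, 15.3 and 5.75 in G12D against 12.7, 2.90 and 43.8 in WT and was not called. An exon peak of Atp2a3, a calcium pump gene of the endoplasmic reticulum, had 29.4, 13.0 and 23.7 in G12D and 0 throughout WT, at least 9.12-fold higher. The other Atp2a3 peak went the opposite way, with 16.4, 10.7 and 23.0 in G12D against 42.5, 69.6 and 69.6 in WT, and was called lower. Others of this kind were in the 3' UTR of Morf4l2 (at least 7.49-fold higher), an intron of Stard7 (at least 7.79-fold) and the 3' UTR of a gene label without a symbol on chromosome 6 (at least 6.45-fold). Stard7, which encodes a carrier of phosphatidylcholine to mitochondria, had the widest spread of these, at 7.63, 11.1 and 31.6 in G12D.

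A pair of 5' UTR peaks also rose. Plekhg6 had 106, 78.0 and 154 normalized reads in G12D, against 8.49, 11.6 and 2.58 in WT (log2 fold change 3.86 ± 0.52). The lack of overlap was required by the choice of peaks. Its only other tested peak, also in the 5' UTR, rose too. Zdhhc17 encodes a palmitoyltransferase. Its peak had 26.2, 42.3 and 21.5 in G12D and 4.25, 0 and 0 in WT, where it rested on 2 reads. The ratio was 28.8, with a counting interval of 7.89 to 239.

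The peaks that fell furthest were well covered in WT and low in G12D. Alas1 encodes the rate-limiting enzyme of heme synthesis. Its 3' UTR peak (chr9:106239667-106239722) fell to 0, 5.98 and 6.46 normalized reads in G12D, against 97.7, 46.4 and 96.7 in WT. The log2 fold change was -4.37 ± 0.74 (limma adjusted p = 0.000787), and the 4 other tested Alas1 peaks were also below 0, at -1.11 to -3.54, with 2 of them called. Dio1, which activates thyroid hormone, had a 5' UTR peak with 4.36, 11.6 and 24.4 in G12D and 308, 58.0 and 267 in WT (log2 fold change -3.83 ± 0.67). An exon 8mer peak of Slc37a2, a sugar phosphate exchanger gene, had 22.9, 20.6 and 55.3 in G12D against 471, 484 and 249 in WT (log2 fold change -3.65 ± 0.44). In all 3 genes no G12D library reached the lowest WT library, as the choice of peaks required.

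Regulators of transcription and chromatin were among the other large falls. Taf7, a subunit of the general factor TFIID, had a 3' UTR 8mer peak with 44.7, 60.2 and 46.7 normalized reads in G12D and 471, 296 and 768 in WT (log2 fold change -3.22 ± 0.39). Jarid2, an accessory subunit of Polycomb complex PRC2, had an exon peak with 1.09, 3.30 and 4.31 in G12D and 19.1, 23.2 and 42.5 in WT (log2 fold change -2.93 ± 0.62). The peak labelled with both Kdm6b and Tmem88 had 5.45, 0.413 and 2.15 in G12D against 29.7, 37.7 and 36.1 in WT. Kdm6b encodes a demethylase of the Polycomb mark, and its 2 miR-29 peaks labelled with Kdm6b alone were not called. Jund, an AP-1 transcription factor gene, had an exon 8mer peak with 2.18, 4.13 and 5.03 in G12D and 21.2, 23.2 and 27.1 in WT (log2 fold change -2.42 ± 0.55).

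The last falls were in genes of antigen presentation and sphingolipid metabolism. Tapbp, which encodes the MHC class I loading factor tapasin, had 3.27, 1.86 and 2.87 normalized reads in G12D and 21.2, 34.8 and 24.5 in WT. Smpd3, a neutral sphingomyelinase gene, had 2.18, 3.92 and 3.59 in G12D against 17.0, 26.1 and 33.5 in WT. Sptlc2, a subunit of serine palmitoyltransferase, the first enzyme of sphingolipid synthesis, had 5.45, 4.54 and 8.62 in G12D against 36.1, 20.3 and 34.8 in WT. The log2 fold changes were -2.91, -2.62 and -2.12. In each gene the G12D libraries lay below the WT libraries, as the choice of peaks required. The 3 other tested Sptlc2 peaks were not called, at -0.22 to 1.42.

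**Figure D3:**
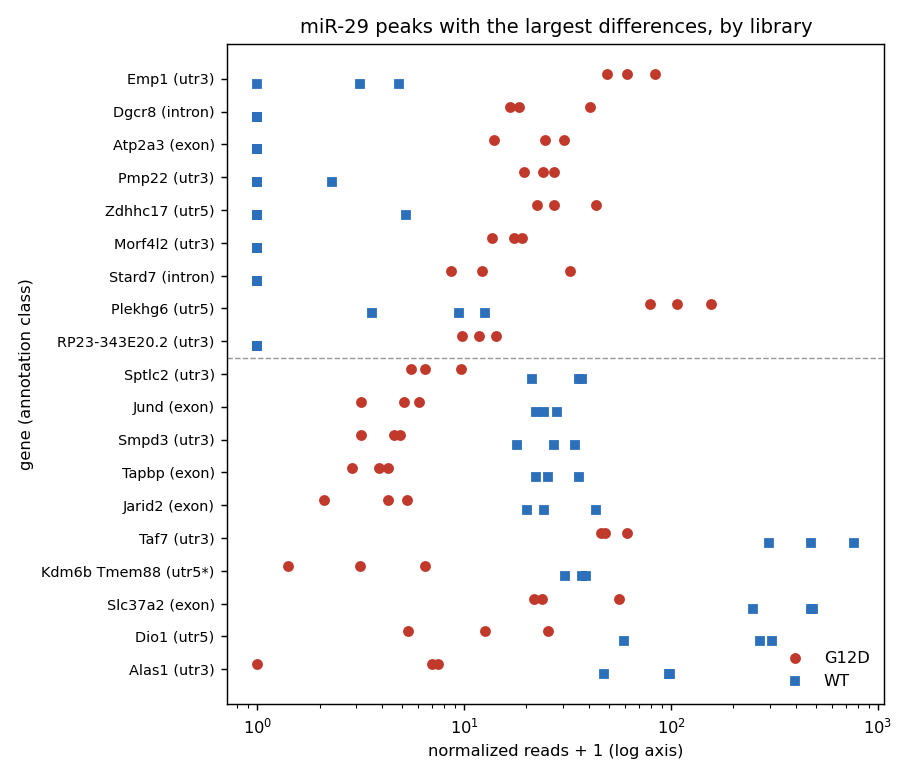
Normalized reads + 1 (log axis) of 9 of the 10 miR-29 peaks that rose most and the 10 that fell most, with a dot for each G12D library above a square for each WT library and the authors' class in brackets (utr3, utr5, exon, intron). In all 19 peaks the 3 libraries of 1 genotype lie on one side of the other's, as the choice of peaks required; values run from 0 to 484 except for Taf7, which reached 768 in WT.

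Of 54 genes known as miR-29 targets in other tissues, 17 had an Ago2 peak and 8 had a peak with a miR-29 site, among them Bak1, Cdc42, Itga6, Mcl1, Sgk1, Tet3 and Zfp36. They held 12 miR-29 peaks, of which 11 were tested. By limma 5 were higher and none lower, beside 36.2% and 12.7% of all tested peaks, with a median log2 fold change of 1.50. Quantile normalization, edgeR and DESeq2 each called 3 higher and 1 lower, and limma without WT replicate 2 called 5 higher and 1 lower. Without G12D replicate 1, 3 were higher, and without G12D replicate 2 or 3, 2 were. Over all 60 tested peaks of the 17 genes, 25 were higher and 2 lower, with a median of 1.52. Of 30 extracellular matrix genes, the class for which the family is best known, 2 had any Ago2 peak, and 1, Itga6, had a miR-29 site. Itga6 encodes the integrin subunit alpha 6 of hemidesmosomes, and its peak was not called, at 17.4, 8.87 and 5.75 normalized reads in G12D and 2.12, 2.90 and 6.44 in WT (log2 fold change 1.25, but -0.06 after quantile normalization).

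Mcl1 and Bak1 belong to the mitochondrial death pathway, and each had a miR-29 peak called higher. Mcl1, an anti-apoptotic BCL2 relative, had a 3' UTR 8mer peak with 32.7, 108 and 58.2 normalized reads in G12D and 12.7, 11.6 and 9.02 in WT (log2 fold change 2.32 ± 0.48, limma adjusted p = 0.00251). Bak1, a pore-forming killer of the same family, had 28.4, 19.8 and 30.2 in G12D and 12.7, 0 and 3.87 in WT (log2 fold change 2.72 ± 0.84, limma adjusted p = 0.0192). Neither gene's groups overlapped, and both genes also had higher peaks without a miR-29 site, 7 of 12 in Mcl1 and 2 of 2 in Bak1. The Bak1 call did not hold when any 1 G12D library was left out. Cflar, which blocks caspase 8, was picked after its values were seen. It had 12.0, 32.4 and 18.0 in G12D against 8.49, 2.90 and 2.58 in WT (log2 fold change 1.99 ± 0.64). The peak of Xiap, a caspase inhibitor gene, was too low to test.

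Tet3 had 3 miR-29 peaks, all 8mers. The 3' UTR peak at chr6:83364293-83364352 rose to 18.5, 42.9 and 32.3 normalized reads in G12D, against 10.6, 8.69 and 10.3 in WT (log2 fold change 1.50 ± 0.47, limma adjusted p = 0.0219). That call was lost under 5 of 17 alternatives. The other 3' UTR peak had 5.45, 8.87 and 11.5 in G12D against 4.25, 2.90 and 0 in WT and was not called. The exon peak had 29.4, 17.5 and 36.6 in G12D against 36.1, 20.3 and 51.6 in WT and overlapped. Zfp36, a gene whose protein speeds the decay of AU-rich mRNAs, had a pair of 3' UTR peaks close to each other. The first had 37.1, 35.7 and 23.7 in G12D against 14.9, 2.90 and 14.2 in WT and was called (log2 fold change 1.73 ± 0.59, limma adjusted p = 0.0298), though not under 8 of 17 alternatives. The other had 38.2, 36.1 and 33.0 in G12D against 48.8, 29.0 and 36.1 in WT, with a log2 fold change of -0.05 that turned to 0.14 when libraries were scaled to equal totals. Sgk1, an AKT-related kinase gene, had 5.45, 12.8 and 16.5 in G12D against 25.5, 8.69 and 20.6 in WT and was not called. The peak of Cdc42, a small GTPase gene, was too low to test.

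The miR-29 peaks with the most reads lay outside the known targets. The highest pair carries the label RP23-81C12.1 and lies on chromosome 17, 391 and 3306 bases upstream of Rn18s-rs5, which RefSeq lists as a pseudogene. The nearer one rose to 879, 741 and 1275 normalized reads in G12D, against 321, 220.3 and 236 in WT (log2 fold change 1.88 ± 0.36). The farther one fell to 147, 156 and 298 in G12D, against 989, 409 and 803 in WT (log2 fold change -1.85 ± 0.43). These peaks were 2 of 3 merged peaks within 4000 bases of that pseudogene, and fragments of ribosomal RNA cannot be told apart here from RNA of another kind. Txn1, the thioredoxin gene, had an exon peak with 115, 347 and 193 in G12D and 329, 179.7 and 633 in WT. Its groups overlapped and limma did not call it, while edgeR called it lower (adjusted p = 0.0102). The 5 highest miR-29 peaks, which also include Taf7 and Slc37a2, took 24.1, 21.0 and 25.5% of all normalized reads in miR-29 peaks in G12D and 42.2, 40.0 and 43.7% in WT.

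Grouped by the known roles of their genes, miR-29 peaks gave mixed counts. The groups include peaks already named above for their large changes, so their counts are not a fresh set. These groups were drawn up from the gene names after the values were seen, so the counts are descriptions, to be read against the 36.2% higher and 12.7% lower over all tested peaks. Of 7 tested peaks in growth factor and cytokine receptor genes and ligands, 2 were higher. Egfr, the receptor of epidermal growth factor, had 16.4, 9.08 and 8.62 normalized reads in G12D and 2.12, 0 and 0 in WT, where it rested on 1 read (ratio 15.8, counting interval 2.74 to 633). Ifngr2, a subunit of the interferon gamma receptor, had 40.4, 61.7 and 66.1 in G12D and 29.7, 26.1 and 25.8 in WT (limma adjusted p = 0.0440). The peaks of Erbb2, Epha2, Hbegf, Fzd5 and Gucy2c were not called.

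Of 12 tested peaks in cell junction and adhesion genes, 5 were higher and none lower, near the 36.2% and 12.7% of all tested peaks, with Emp1, Pmp22, Lima1 and Pkp3 among them. Lima1, which links actin to adherens junctions, had an intronic 8mer peak with 12.0, 5.78 and 16.5 normalized reads in G12D and 0 in each WT library, at least 4.60-fold higher. In chromatin and transcription genes, 3 of 15 tested peaks were higher and 5 lower. Suv420h2, a histone H4 methyltransferase gene, fell to 20.7, 34.5 and 40.9 in G12D, against 134, 92.7 and 102 in WT (log2 fold change -1.78 ± 0.37). Brwd3 fell as well, and Bcor, Med13 and Tet3 rose.

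In immediate early and mRNA decay genes, 3 of 11 tested peaks were higher and 1 lower. Btg2, an antiproliferative gene that recruits deadenylases, had 56.7, 69.9 and 54.6 normalized reads in G12D and 6.37, 14.5 and 2.58 in WT (log2 fold change 3.04 ± 0.54). Klf4, a transcription factor of differentiated colonocytes, had 27.3, 32.0 and 24.4 in G12D and 6.37, 17.4 and 10.3 in WT (log2 fold change 1.32 ± 0.49). Of 3 tested peaks in small RNA pathway genes, limma called only the intronic Dgcr8 peak. It had no WT read and passed the filter through its G12D reads alone, and the other tested Dgcr8 peak was not called. Dicer1, which cuts miRNA precursors, had an exon peak with 21.8, 15.9 and 11.5 in G12D against 23.4, 14.5 and 24.5 in WT, and Zcchc11, a uridyltransferase gene, was not called either.

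Lipid metabolism genes had 4 peaks higher and 2 lower of 8 tested, where all tested peaks gave 36.2% and 12.7%. The higher ones were Stard7, Agpat4, Smpdl3a and Gal3st1, and the lower ones Sptlc2 and Smpd3. Agpat4, an enzyme of phosphatidic acid synthesis, had 24.0, 18.2 and 20.1 normalized reads in G12D and 0, 2.90 and 2.58 in WT, where it rested on 3 reads (ratio 10.2, counting interval 3.43 to 50.2). Transport genes had 3 higher and 3 lower of 12. Atp1b1, the beta subunit of the sodium pump, fell to 34.9, 33.8 and 36.6 in G12D, against 70.1, 75.4 and 64.4 in WT (log2 fold change -0.97 ± 0.33, limma adjusted p = 0.0306).

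Tff3, a trefoil peptide of goblet cells, was the only goblet marker with a miR-29 peak. It had 72.0, 78.2 and 108 normalized reads in G12D and 34.0, 29.0 and 30.9 in WT, with no overlap (log2 fold change 1.41 ± 0.35, limma adjusted p = 0.00608). Of the 7 goblet markers, 5 had Ago2 peaks. Of their 33 tested peaks 20 were higher and none lower, beside 36.2% and 12.7% of all tested peaks. Their peaks summed to between 3717 and 5128 normalized reads in G12D libraries and between 939 and 1427 in WT libraries. The peaks of the 15 colonocyte markers went the other way in sum. They came to between 6465 and 7148 normalized reads in G12D libraries and between 11949 and 12710 in WT libraries. Yet 32 of their 83 tested peaks were called higher and 11 lower, near the 36.2% and 12.7% of all tested peaks. The part of these in the Tff3 result was not tested. In such bulk samples more cells of a type and more RNA per cell cannot be told apart.

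The genotype list in which a peak had been called went along with its direction. The authors called peaks separately for each genotype, and 187 miR-29 peaks were in the G12D list only, 44 in both and 9 in the WT list only. Of 146 tested miR-29 peaks from the G12D list only, 68 were higher and 1, Alas1, was lower, with a median log2 fold change of 1.62. The background for that list was 47.0% higher and 0.663% lower. Of the 44 in both lists, 6 were higher and 11 lower, with a median of -0.46, against a background of 13.9% and 25.6%. Of the 9 in the WT list only, none was higher and 7 were lower, with a median of -2.42, against 0.676% and 74.3%. The lists come from the same reads as the fold changes and are not independent of them. When the peaks in both lists were fitted by themselves, 4 miR-29 peaks were higher and 11 lower, against 12.7% and 25.0% of all such peaks.

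**Figure D4:**
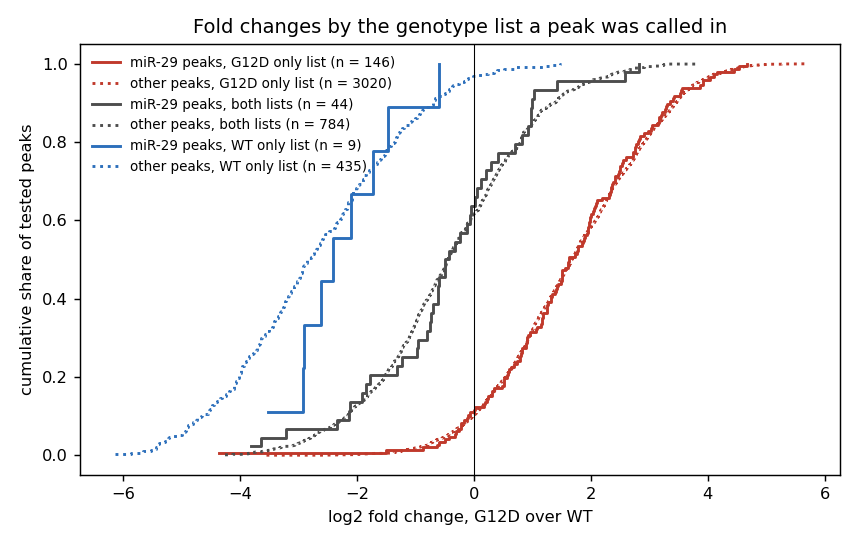
Cumulative share of tested peaks by log2 fold change, G12D over WT, for miR-29 peaks and other peaks called in the G12D list only, in both lists and in the WT list only. The curves of miR-29 peaks run near those of the other peaks of the same list, with medians of 1.62, -0.46 and -2.42 for miR-29 peaks.

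By position, 43 of 110 tested miR-29 peaks in 3' UTRs were higher and 8 lower, against 37.7% and 6.81% of all tested 3' UTR peaks. In exons 15 of 60 were higher and 9 lower, against 28.7% and 18.6%. In introns 12 of 13 were higher and none lower, against 65.5% and 17.8%, but nothing can be read from this. All 27 intronic miR-29 peaks had been called in the G12D list only, while 52 of the 443 intronic peaks were in the WT list only, and 6 of the 13 had no WT read and passed the filter through G12D alone. Their median log2 fold change was 2.84, or 2.47 with those 6 peaks set at their bound. Another 14 intronic miR-29 peaks were too low to test, so the 13 are those with the most reads. In 5' UTRs 3 of 9 were higher and 1 lower, against 33.1% and 16.5%.

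By site, 8mer peaks had 32 higher and 6 lower of 71 tested, with a median log2 fold change of 1.51. The 7m8 peaks had 31 and 9 of 91, with a median of 1.14, and the 7A1 peaks 11 and 4 of 37, with a median of 0.68. Peaks with only the 6-base match, which are not miR-29 peaks as counted here, had 16 and 8 of 69, with a median of 0.62. Annotated peaks with no match of 7 bases or more to any family had a median of 1.22. No difference between site types was tested, and positions differ between them. Within exons the 8mer peaks had 9 higher and 2 lower of 21, and the 7A1 peaks none higher and 3 lower of 12. Peaks with no other family's site had 42 higher and 7 lower of 99, and those shared with another family 32 and 12 of 100, beside 36.2% and 12.7% of all tested peaks. This difference was not tested. Of the tested miR-29 peaks with no WT read, 10 had no other family's site and 1 was shared. Those peaks passed the filter through their G12D reads alone.

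The level of each miR-29 peak was compared with the mean of the other tested peaks of the same gene in each library. Those are Ago2 peaks too, some with sites for other families, and the input controls were not used. In genes with further tested miR-29 peaks, such as Tet3 and Zfp36, the mean includes those peaks as well. The comparison therefore does not separate a peak from the level of its transcript. Such a comparison could be made for 122 miR-29 peaks in genes with at least 1 other tested peak. Relative to their gene 15 were higher and 22 lower in G12D, against a background of 13.1% and 16.8% (29.8% in all), with a median log2 difference of -0.05 over miR-29 peaks and 0.09 over all such peaks. Without G12D replicate 1, 9 were higher and 14 lower, and without G12D replicate 2 or 3 the number higher was 6. Over all 2965 such peaks 219 were higher and 362 lower without G12D replicate 1. Without G12D replicate 2 or 3 the number higher was 197 or 212. Where a gene had only 2 tested peaks, the result of one mirrors that of the other. Of the 47 peaks called higher that could be compared, 12 were also higher than the rest of their gene. Of the 8 called lower, 7 were also lower than the rest of their gene. Over all peaks the same held for 28.3% of those called higher and 81.3% of those called lower. A further 14 peaks were lower relative to their gene without a call of their own.

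Among the largest relative rises were Atp2a3, at a log2 difference of 6.28 from the other peak of the gene, Agpat4 at 5.99, Lima1 at 5.88 and Dgcr8 at 5.32. Where a peak has no WT read, as in Atp2a3, Lima1 and Dgcr8, the size of the difference depends on the 1 normalized read added before taking logarithms. Such peaks passed the filter through their G12D reads alone, so no p-value is given for them. The 3' UTR peak of Emp1 rose by 2.44 ± 0.69 more than the mean of 15 other Emp1 peaks (limma adjusted p = 0.0189). That mean gives each peak the same weight. Of the 14 without a miR-29 site 11 were called higher and 1 lower. The 1 called lower had the most WT reads, with means of 437 in WT and 59.2 in G12D. For Mcl1, Bak1 and Pmp22 the relative difference did not pass, at 0.49, 0.62 and 1.64.

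Some peaks that limma did not call by themselves were called lower relative to the rest of their gene. The Txn1 peak was lower relative to its gene by a log2 difference of -2.89 ± 0.57 (limma adjusted p = 0.00287), as 2 of the 3 other Txn1 peaks rose. The exon peak of Tet3 was lower by -2.31 and the second Zfp36 peak by -1.86. Epha2, an ephrin receptor gene, had 14.2, 8.67 and 25.1 normalized reads in G12D and 17.0, 17.4 and 10.3 in WT, and a log2 difference of -3.40 ± 0.66 from the other peak of the gene. Fzd5, a Wnt receptor gene, had 29.4, 33.4 and 44.5 in G12D and 61.6, 60.9 and 65.7 in WT, and a difference of -3.17. F11r, the gene of the junction protein JAM-A, had a difference of -2.30. Epha2, Fzd5 and F11r were picked after their values were seen.

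**Figure D5:**
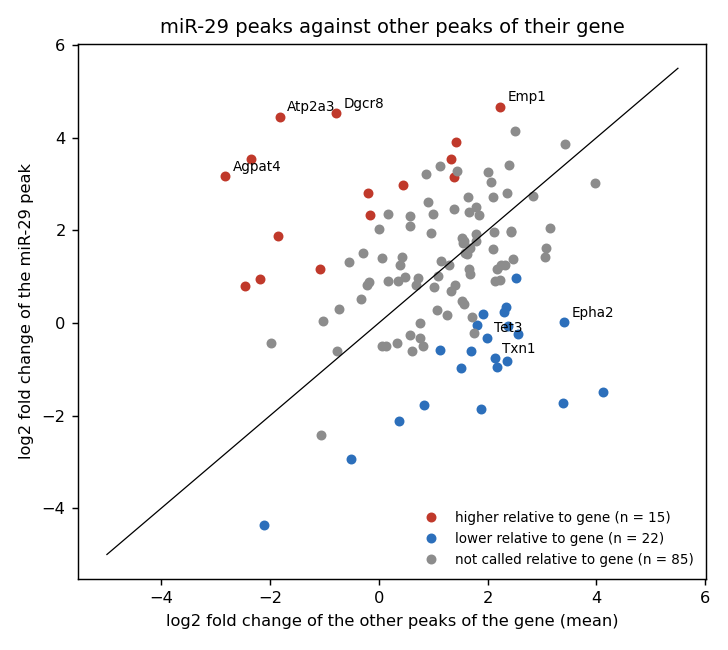
Log2 fold change of each of 122 miR-29 peaks against the mean log2 fold change of the other tested peaks of its gene, coloured by the call of the difference. Points on the diagonal changed as much as the mean of the other tested Ago2 peaks of their gene. The 15 peaks called higher relative to their gene lie above it and the 22 called lower lie below it.

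As a share of all reads in merged peaks, miR-29 peaks took 3.09, 4.23 and 4.13% in the G12D libraries and 2.86, 2.52 and 3.21% in the WT libraries. The means were 3.82 ± 0.629% in G12D and 2.86 ± 0.347% in WT (SD, n = 3 each), and G12D replicate 1 lay below WT replicate 3. With ribosomal and small nuclear RNA peaks left out of both the total and the miR-29 peaks, which removes the pair near Rn18s-rs5, the shares came to 3.68 ± 0.427% in G12D and 3.33 ± 0.218% in WT. With only that pair left out of the miR-29 peaks and the total kept, they were 3.11 ± 0.596% in G12D and 2.34 ± 0.288% in WT. Among 3' UTR peaks alone, miR-29 peaks took 3.51, 4.16 and 3.95% of the reads in G12D and 4.58, 3.70 and 4.76% in WT, so the order of the means was turned there. The 8mer peaks took 1.48, 1.91 and 2.12% in G12D and 1.08, 1.09 and 1.18% in WT. That separation rested on the 8mer peak next to Rn18s-rs5: without it the 8mer peaks took 0.942, 1.41 and 1.40% in G12D and 0.934, 0.954 and 1.05% in WT, and the groups overlapped.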

How the data were processed

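Halo-Ago2 pulldown libraries were analysed from 2 deposited tables, 1 of mature miRNAs and 1 of merged peaks. Their values are a non-negative signal that the authors made by dividing the reads of each feature by 1 factor per library. All values above 0 in the 12 libraries analysed were whole reads within 0.01 of a read after division by the library's step. STAR 2.5.2b, DESeq2, mm10 and GRCm38 are named in the submitters' processing notes. No source used here gives the peak caller or counting rules. The deposited differential tables hold the authors' log2 fold changes and p-values, per the file headers, and the deposited peak lists a score per peak, used only for an alternative. Peak columns carry a genotype code and replicate number and were read as the pulldown libraries of mRNA. Sites, classes and gene labels are the authors'.

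The main test was limma 3.58.1 (R 4.3.3) with a variance trend on log2(normalized reads + 1), which understates changes of low features. Peaks needed a mean of 5 and miRNAs of 10 normalized reads, and p-values were adjusted by Benjamini-Hochberg over all features tested, threshold 0.05. The comparison within genes was added after the data were seen. Recovered reads were tested with edgeR 4.0.16 and DESeq2 1.42.0 as alternatives, and other pseudocounts, filters and scalings, a replicate block and each library left out were tried. Same-numbered mRNA libraries did not deviate together, while 2 of the 3 same-numbered pairs of miRNA libraries deviated in opposite directions. The peaks of 1 gene are not reported here. Named peaks were the 10 largest non-overlapping calls in each direction, the 5 highest means and all miR-29 peaks of known targets; others are said to be picked later or serve as examples of a group. The miR-29 peaks, gene lists and tests were chosen with earlier results of these data known. Counting intervals and floors (3 counts over a group) cover counting error only. Coordinates are GRCm38, counted from 1.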

Additional observations from a re-analysis of the deposited data

How the results depend on the processing

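The count of 93 called miR-29 peaks, 74 higher and 19 lower, held within 1.5 times under another pseudocount, no filter, equal totals, no variance trend and thinning. It was 28 (17 higher, 11 lower) with a mean of at least 20, 54 (30 higher) after quantile normalization, 15 (4 and 11) for peaks in both lists and 38 (32 and 6) for 8mers alone. edgeR called 48 higher and 30 lower, and DESeq2 49 higher. Over all peaks a mean of at least 20 gave 429 higher and 361 lower of 1329. Leaving out 1 library gave 55 to 88 calls, 40 to 71 higher and 14 to 21 lower, with 55 without G12D replicate 2 or 3. Over all tested peaks the same fits called 977 to 1632 higher and 433 to 643 lower. Within genes, 15 higher and 22 lower became 6 and 12 with a mean of at least 20, 3 and 3 for peaks in both lists, and 8 higher after 1 random thinning to the shallowest library. Over all peaks compared within genes these were 146 and 150 of 588, 59 and 60 of 285, and 235 higher. Leaving out 1 library gave 6 to 18 higher and 14 to 25 lower. Over all peaks so compared it gave 197 to 482 higher and 355 to 576 lower. The median log2 fold change turned to -0.46 for peaks in both lists. The 1 miRNA call became 0 with no filter, with a mean of at least 20, without the variance trend and with DESeq2, and 0 to 1 with 1 library left out. The difference in read share of 0.95 percentage points fell to 0.35 with ribosomal and small nuclear RNA peaks left out of total and miR-29 peaks alike, and lay between 0.75 and 1.32 with 1 library left out.

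The Itga6 peak turned to -0.055 after quantile normalization. The second Zfp36 peak turned to 0.14 with equal totals, and lay between -0.23 and 0.14 with 1 library left out. The exon peak of Tet3 turned to 0.26 after thinning. miR-29b-2-5p turned to -0.0895 with equal totals and lay between -0.24 and 0.89 with 1 library left out, and miR-29c-3p to -0.18 and between -0.16 and 0.36; for these the cause was not tested. Of 27 named calls, 24 held under every alternative that tested them, and the others were Bak1, Tet3 and Zfp36. Most of these calls were chosen from the same reads as the largest without overlap, which favours their holding. Some had no WT read and passed the filter through G12D reads alone. The count of 24 is therefore no separate support for them. Between same-numbered mRNA libraries the deviations from the group means had correlations of -0.0357 to 0.0415. Between same-numbered miRNA libraries they were -0.0003, -0.4217 and -0.318. Differently numbered miRNA libraries had correlations of -0.2082 to 0.4251, the highest between G12D replicate 3 and WT replicate 2. What lies behind these was not tested. With the replicate block 92 peaks were called, 74 higher and 18 lower, 12 and 22 within genes, and 1 miRNA. Shallow WT libraries limit what can be said of peaks with few reads.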
